A study of Mus musculus with 4 samples.

Results

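The clustered protocadherin genes are 57 protein-coding genes of mouse chromosome 18, chosen by symbol (Pcdha, Pcdhb or Pcdhg) from the 21887 protein-coding genes of a RefSeq table of GRCm38. They form 3 clusters in a row, with 14 alpha members, 22 beta members and 21 gamma members. Tfcp2l1 sites were taken from 100 kb before the first member to 100 kb after the last (chromosome 18, 36830285 to 37941873). This window held 41 of 57614 peaks in repeat 1 and 37 of 51610 in repeat 2, and 32 sites were found in both repeats.

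Clustered protocadherins are cadherin-like cell adhesion proteins that give single neurons a surface identity through homophilic binding. Alpha and gamma genes each have a promoter and a large variable first exon of their own, which is spliced to a set of constant exons common to the whole cluster, while beta genes consist of a single exon. In neurons many promoters are chosen at random, with CTCF and cohesin joining a promoter to a distant enhancer, whereas the C-type members at the ends of the alpha and gamma clusters are used more uniformly.

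Binding of Tfcp2l1, a transcription factor of the naive pluripotency network, was mapped by ChIP-seq in untreated mouse embryonic stem cells of wild type genotype. All libraries came from cells in serum-free medium with N2 and B27 supplements, 1000 units/mL of LIF, the GSK3 inhibitor CHIR99021 at 3 µM and the MEK inhibitor PD0325901 at 1 µM. There were 4 libraries, namely 2 ChIP libraries made with a custom anti-Tfcp2l1 antibody and 2 input libraries, 1 of each per repeat. The cell line is not named in the labels, which also do not say whether the repeats were separate cultures, so their spread may be technical. With 1 condition there were no groups of samples to test against each other, and all comparisons below are descriptions.

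The ChIP libraries held 19353473 filtered tags in repeat 1 and 22555373 in repeat 2, against 18446758 and 23825930 in the inputs. Values are the authors' own for single peaks: the number of ChIP tags in the peak and the fold enrichment over the local background. FDR as deposited was at most 0.11% and 0.08% at the shared sites of the window. In each pair of values repeat 1 comes first. Peak positions are from repeat 1, read as GRCm38 although the submitters' processing notes name mm9. Over the full lists the median peak had 46 and 48 tags and 12.1-fold and 10.2-fold enrichment.

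The gamma cluster carried most of the sites, and the beta cluster carried none that both repeats shared. Between the first start and the last end of each cluster lay 19 shared sites in gamma, 4 in alpha and 0 in beta. The interval between beta and gamma held 3 shared sites, the interval between alpha and beta held 0, and the 100 kb after the gamma cluster held 6. Median enrichment was 23.8-fold and 13.7-fold for the gamma sites and 8.46-fold and 7.76-fold for the alpha sites. The 6 sites after the gamma cluster had higher medians than the gamma sites, 55.4-fold and 26.7-fold. In both lists the gamma median was above the median of all peaks and the alpha median was below it. The same held against all shared sites of the genome, whose medians were 15.5-fold and 11.8-fold.

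**Figure D1:**
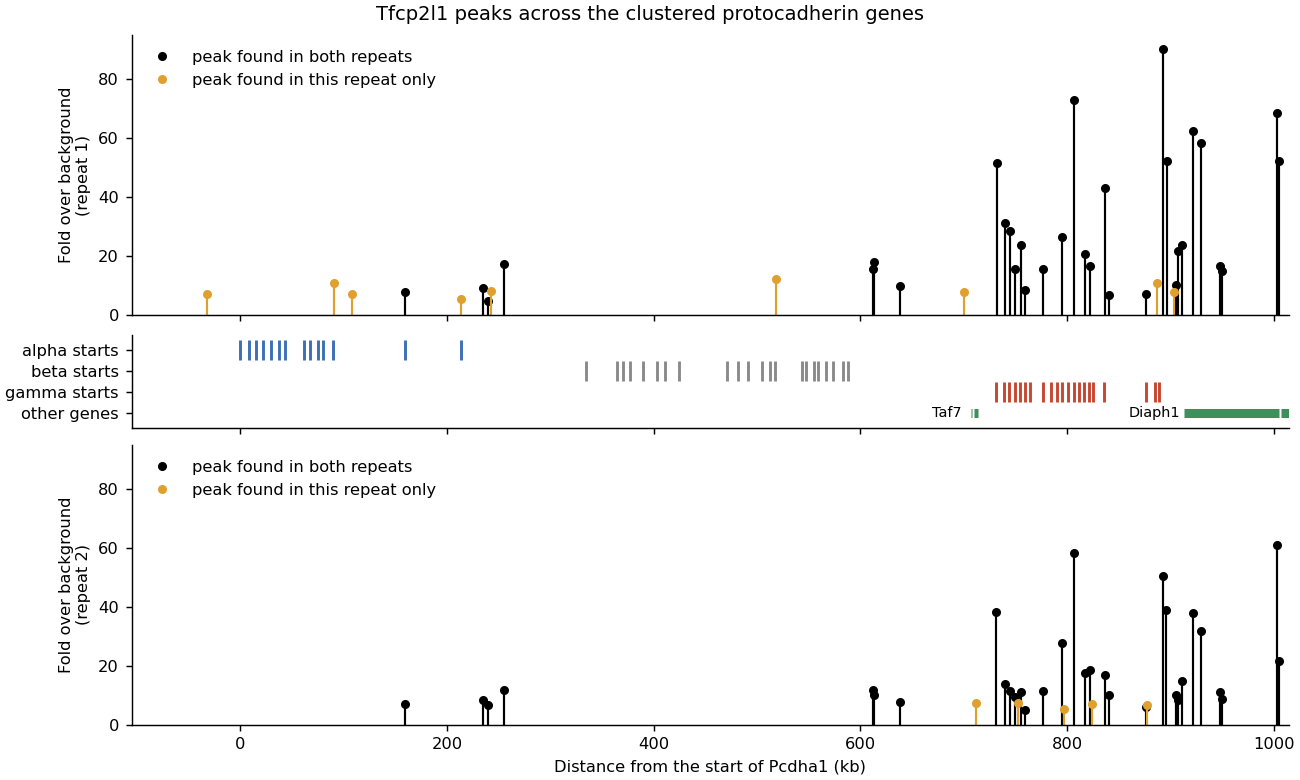
Fold enrichment over background of each Tfcp2l1 peak (vertical axes, repeat 1 above and repeat 2 below) along the clustered protocadherin genes (horizontal axis, kb from the start of Pcdha1), with ticks for member starts and bars for other genes in the middle panel. The tall peaks stand over the gamma cluster and Diaph1, with the tallest of repeat 1 (90.3-fold) past the last gamma start, and no shared peak stands over the 22 beta starts.

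Many gamma members had a shared site close to their start, and others had none. Gamma starts lay at least 4.15 kb apart, so a site within 1.5 kb of a start could be near that start alone. Of the 21 gamma members, 11 had a shared site with its summit within 1 kb of the gene's start and 13 had one within 1.5 kb. A shared site within 1 kb of the start was found for 24.3% of other protein-coding genes. Of these 13 summits in repeat 1, 12 lay downstream of the start and 1 upstream, from -21 bp to 1311 bp with a median of 278 bp. The start is the lower end of the annotated gene, which tilts offsets toward the downstream side. Summits of the repeats differed by up to 130 bp at these sites, and that of Pcdhgb1 was upstream in repeat 2 (-5 bp). The side of the smallest offsets is therefore uncertain. The deposited files and the gene table hold no exons, so whether a summit lies in the variable exon was not tested.

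The strongest start site was that of Pcdhga9, a member of the A type of gamma protocadherins. It lay on chromosome 18 at 37736565 to 37737571, with 206 and 252 tags. Enrichment was 73.0-fold and 58.5-fold, and the summits were 54 bp and 37 bp downstream of the start. Pcdhga9 stood above every other start site in both repeats, and 96.5% and 97.4% of the peaks in the full lists had a lower fold.

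Pcdhga1, the outermost gamma member and the one nearest the beta cluster, came next in both repeats. Its site (37661517 to 37662628) had 171 and 170 tags and 51.7-fold and 38.5-fold enrichment. The summits lay 278 bp and 218 bp into the gene.

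Below these, the order of the members was not the same in the repeats. Pcdhga12, the last of the A type, had 147 and 92 tags and 43.1-fold and 16.9-fold enrichment, with summits 1311 bp and 1285 bp from its start. Pcdhga8 had 111 and 123 tags and 26.4-fold and 27.9-fold. Pcdhga12 was thus above Pcdhga8 in repeat 1 and below it in repeat 2, and the pair cannot be ordered from these data.

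Some A-type members had much lower enrichment in repeat 2 than in repeat 1. Pcdhga2 had 145 and 83 tags (31.4-fold and 13.7-fold), and Pcdhga3 had 88 and 46 tags (28.4-fold and 11.4-fold). Pcdhga4 had 75 and 57 tags (23.8-fold and 10.99-fold). Ratios of repeat 2 to repeat 1 were 0.438, 0.400 and 0.461 for these genes and 0.392 for Pcdhga12, against a median of 0.760 over all shared sites of the genome. Pcdhga6 and Pcdhga10 were closer to it, at 15.5-fold and 11.4-fold for Pcdhga6 and 20.8-fold and 17.7-fold for Pcdhga10. Ratios this low were not confined to A-type start sites. A site 18.3 kb into Pcdhgc5 had a ratio of 0.379, and the last site of the window, in Diaph1, had 0.412.

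B-type gamma members, whose starts are interspersed among those of the A type, had start sites of lower median fold. Of the 6 B-type members, 3 had a shared site within 1.5 kb, against 9 of 12 A-type members and 28% of other protein-coding genes. The difference between the types was not tested. Pcdhgb1 had 15.6-fold and 9.42-fold enrichment, with summits 91 bp downstream and 5 bp upstream of the start (offset -5). Pcdhgb7 had 16.7-fold and 18.4-fold with summits 1109 bp and 1033 bp downstream, and Pcdhgb2 had 29 and 26 tags and 8.58-fold and 5.10-fold. Medians over the start sites were 15.6-fold and 9.42-fold for the B type and 28.4-fold and 16.9-fold for the A type, with ranges that overlapped in both repeats. In repeat 1 the 3 B-type sites ran from 8.58-fold to 16.7-fold and the 9 A-type sites from 15.5-fold to 73.0-fold.

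**Figure D2:**
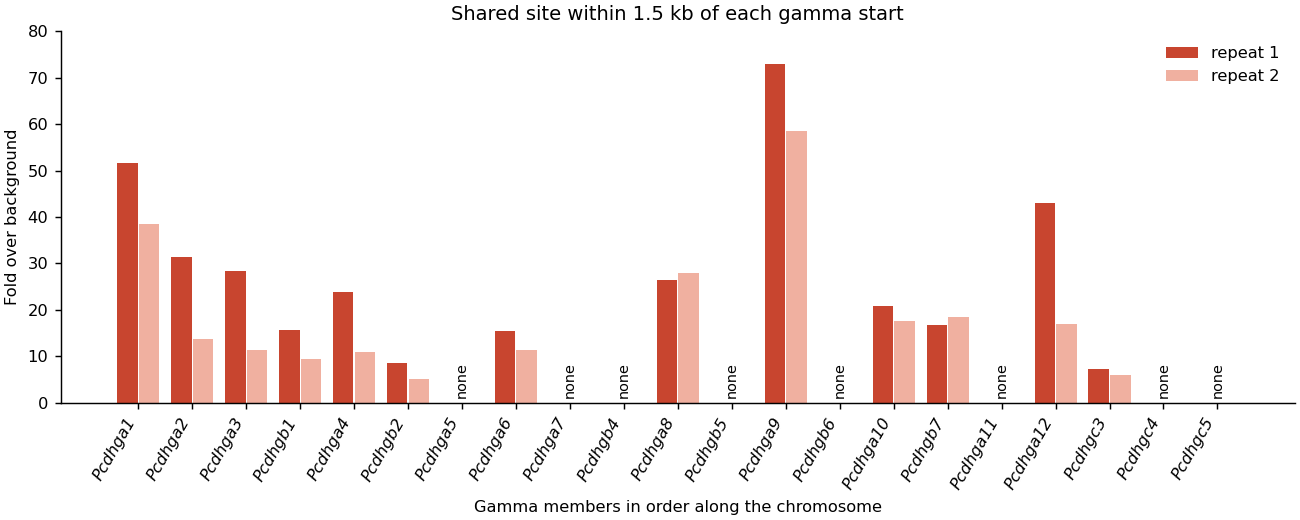
Fold enrichment over background (vertical axis) of the shared Tfcp2l1 site with its summit within 1.5 kb of the start of each gamma member (horizontal axis, in chromosome order), dark bars for repeat 1 and light bars for repeat 2. Pcdhga9 and Pcdhga1 are highest in both repeats, and the 8 members marked "none" had no shared site in that range.

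The 8 gamma members without a shared start site were Pcdhga5, Pcdhga7, Pcdhga11, Pcdhgb4, Pcdhgb5, Pcdhgb6, Pcdhgc4 and Pcdhgc5. Their nearest shared site was 3.05 kb to 7.78 kb away, which for the 6 A-type and B-type members was the start site of another gamma gene. For Pcdhga11 there was a weak peak in repeat 2 alone, 1.15 kb upstream of the start with 23 tags and 7.06-fold enrichment. For Pcdhgc4, a C-type member needed for neuronal survival in mice, there was one in repeat 1 alone, 2.19 kb downstream with 37 tags and 10.7-fold. A peak list records only what passed the caller's threshold, so a member without a peak may still have had weak enrichment.

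Of the 3 C-type gamma members, Pcdhgc3 alone had a start site, and a weak one. This member, which is known to bind the Wnt pathway scaffold Axin1, had 31 and 30 tags and 7.25-fold and 5.89-fold enrichment. The summits were within 21 bp of the start in both repeats (offsets of -21 bp and -5 bp). In the full lists 13.8% and 8.95% of peaks had a lower fold.

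In repeat 1 the strongest site of the gamma cluster lay past the last gamma start. It was found 3.31 kb into Pcdhgc5, at 37822155 to 37823490, with 349 and 315 tags. Enrichment was 90.3-fold and 50.7-fold, above all other sites of the cluster in repeat 1 and second to Pcdhga9 in repeat 2. In the full lists 98.1% and 96.2% of peaks had a lower fold.

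A broad site followed it, 7.22 kb into Pcdhgc5 (37824688 to 37827169). With lengths of 2482 bp and 2453 bp it was the longest shared site of the window in both repeats, and it had the most tags, 361 and 371. Its enrichment was 52.4-fold and 39.1-fold, and its summits differed by 298 bp between the repeats, the largest such gap in the window. The summits lay 0.350 kb and 0.648 kb from the nearer end of Gm29994, a gene for a long non-coding RNA inside the cluster.

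Weaker sites lay over the rest of the stretch toward the common end of the gamma genes. The shared site closest to that end (37840076 to 37841711) had 91 and 73 tags and 23.8-fold and 14.9-fold enrichment, with its summit 0.717 kb to 0.727 kb before the annotated ends. The site 16.3 kb into Pcdhgc5 had 10.15-fold and 10.2-fold enrichment, and the site 18.3 kb into it had 21.7-fold and 8.24-fold. As annotated, all 21 gamma genes run through this stretch, so these sites cannot be given to 1 member. The remaining shared gamma site lay 5.73 kb into Pcdhga12, with 6.91-fold and 10.2-fold.

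Alpha members had 1 shared start site among 14. It lay at Pcdhac1, a C-type member (37089535 to 37090325), with 25 and 27 tags and 7.73-fold and 7.06-fold enrichment. Its summits were upstream of the start, with offsets of -297 bp and -248 bp. Peaks of repeat 1 alone lay 0.752 kb into Pcdha12 (32 tags, 10.96-fold) and 0.684 kb into Pcdhac2 (54 tags, 5.56-fold), a member needed for the spacing of serotonergic axons in mice. From Pcdha1 to Pcdha11 no start had a peak this close in either repeat.

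The other 3 shared alpha sites lay downstream of the last alpha start, in the part common to all alpha genes. Going toward the end, they had 9.18-fold and 8.46-fold, 4.83-fold and 6.67-fold, and 17.4-fold and 11.8-fold enrichment. The last of them (37185305 to 37186196, 47 and 42 tags) was the strongest alpha site in both repeats. It lay 1.88 kb before the end that most alpha genes share, and in both lists it was the only alpha site above the median of all peaks. Its fold was above the median of all shared sites in repeat 1 (15.5-fold) and equal to it in repeat 2 (11.8-fold).

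No beta gene held a shared site. The one closest to a beta start lay 24.5 kb past that of Pcdhb22, the last gene of the cluster, with 50 and 49 tags and 15.5-fold and 11.8-fold enrichment. Over the 22 beta genes the median distance from the start to the nearest shared site was 104 kb, against 0.910 kb over the 21 gamma genes and 107 kb over the 14 alpha genes. A single peak of repeat 1 fell inside the beta cluster, 0.833 kb into Pcdhb14, with 32 tags and 12.1-fold enrichment, and repeat 2 had none.

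The shared summits on either side of the beta cluster were 357 kb apart, and all 22 beta starts lay between them. Between consecutive shared summits on the autosomes the median distance was 15.6 kb, and 1174 of 42585 such distances (2.76%) were at least as long. Beta genes are similar to each other in sequence, and tags of 35 bp that match several copies may have been lost before the peak calls. That was not tested here.

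Sites around the clusters lay inside other named protein-coding genes or inside none, and which genes they act on was not tested. The 3 shared sites between beta and gamma lay 24.5 kb, 25.5 kb and 50.1 kb past the start of Pcdhb22, and their enrichment ran from 9.66-fold to 17.9-fold in repeat 1 and, for repeat 2, from 7.86-fold to 11.8-fold. Taf7, the gene of a TFIID subunit that lies between beta and gamma, had a peak of repeat 2 alone (29 tags, 7.46-fold), and Slc25a2, which encodes a mitochondrial ornithine carrier, had none. All 6 shared sites after the gamma cluster lay inside Diaph1, the gene of a formin that nucleates actin filaments. The strongest of them (37932396 to 37933566) had 308 and 269 tags and 68.4-fold and 61.2-fold enrichment, higher in repeat 2 than any gamma site. Closer to the gamma cluster, the site at 37851707 to 37852768 had 62.3-fold and 38.1-fold and that at 37859619 to 37860665 had 58.5-fold and 31.8-fold. Sites at 37877149 to 37878597 and 37879628 to 37880717 were weaker, with 16.7-fold and 11.15-fold, and 14.98-fold and 8.63-fold. The 100 kb before Pcdha1 had 1 peak, of repeat 1 alone.

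Shared sites also lay beyond both edges of the window. The last site inside it lay 6.41 kb from the edge and 0.156 kb from an end of Diaph1, with 52.4-fold and 21.6-fold enrichment. The next shared site beyond that edge was 14.7 kb outside, inside Rell2, with 9.53-fold and 5.89-fold. On the left the next one outside was 46.7 kb away, inside Hars2, with 18.4-fold and 14.1-fold.

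Set against other genes, the 3 clusters lay on different sides of the background. Within 1 kb of the start a shared site was found for 12 of 57 members, and for 24.3% of the 17492 other protein-coding genes whose strand the table gives. As a whole the members were thus near the background. By cluster the counts were 11 of 21 for gamma, 1 of 14 for alpha and 0 of 22 for beta. Within 10 kb they were 21 of 21, 1 of 14 and 0 of 22, together 22 of 57, beside 50.1% of other genes. Members lie side by side and can share a site within 10 kb, since gamma starts were a median of 5.37 kb apart, so these counts are not independent.

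**Figure D3:**
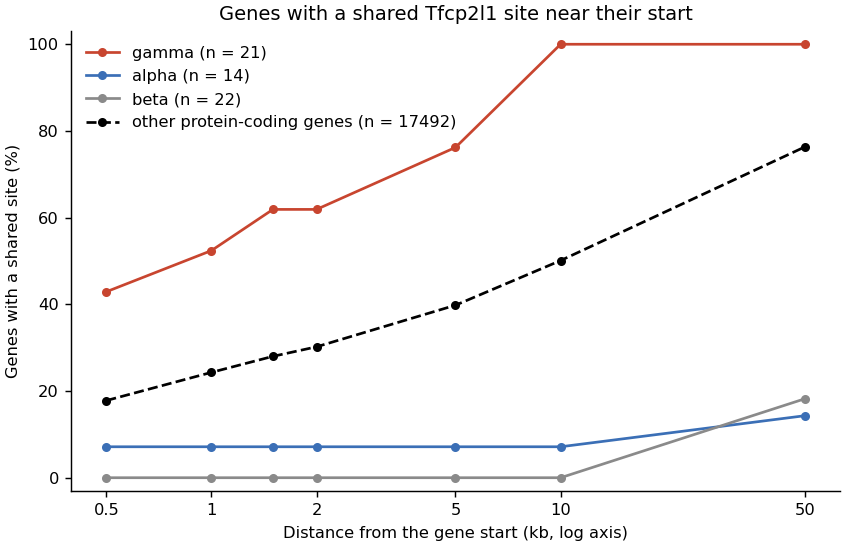
Percentage of genes with a shared Tfcp2l1 summit (vertical axis) within a given distance of the gene start (horizontal axis, log scale, kb) for gamma, alpha and beta members and for other protein-coding genes (dashed line). At 1 kb the gamma line stands at 52.4% and the line of other genes at 24.3%, with alpha at 7.14% and beta at 0%.

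Counting from either end of the gene changed the alpha count, since alpha genes end close together. Within 10 kb of either end, 14 of 14 alpha, 21 of 21 gamma and 0 of 22 beta members had a shared site, 35 of 57 in all, beside 59.8% of all protein-coding genes. For the alpha genes other than Pcdhac1 that count rests on sites near the common end and on none at a start. Hox genes and core histone genes also lie in tandem arrays. Of those with a known strand, 7 of 22 and 19 of 52 had a shared site within 1 kb of the start. The share of other protein-coding genes at that distance was 24.3%.

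Starts take up part of each cluster, and more of gamma than of alpha. Of the 180 kb from the first gamma start to the common end, 22.8% lies within 1 kb of a gamma start, and 11 of the 19 shared sites (57.9%) had their summit there. The alpha cluster had 1 of 4 sites in the 10.4% of its span that is near a start. No test was made of either share.

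Shared sites per Mb were 105 in the gamma cluster, 15.5 in the alpha cluster and 0 in the beta cluster. The 100 kb after the gamma cluster had 60 per Mb, so a high density was not confined to the gamma genes. The rest of chromosome 18 had 15.1 per Mb and all autosomes together 17.5. The alpha density was close to that of the rest of the chromosome, and the window as a whole had 28.8 per Mb. In consecutive autosomal windows as long as the gamma cluster the median was 1 shared site, with quartiles of 0 and 5, and 124 of 13492 windows (0.919%) held at least 19. In windows as long as the beta cluster the median was 2, and 27.6% held none, so an empty stretch of that length was common.

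**Figure D4:**
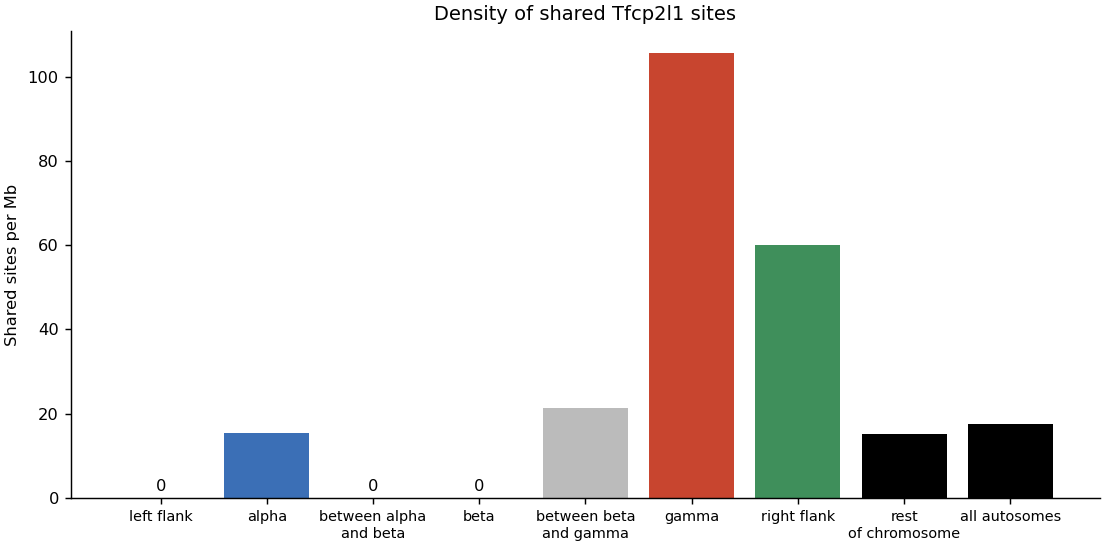
Shared Tfcp2l1 sites per Mb (vertical axis, from 0) in the parts of the protocadherin window in chromosome order, beside the rest of the chromosome and all autosomes in black. The gamma bar stands at 105 per Mb and the beta bar at 0, with 17.5 per Mb over the autosomes.

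The repeats ordered the sites of the window alike, with lower fold in repeat 2 (median ratio to repeat 1 of 0.706). Shared sites were 78% of its peaks in repeat 1 and 86.5% in repeat 2, beside 75% and 83.7% over the full lists. Summits of the 32 pairs were a median of 25.5 bp apart, and 30 were within 100 bp. Across these sites, which share their libraries and are not replicates, Pearson's r of the log2 fold was 0.896 and Spearman's rho 0.882, against 0.864 and 0.813 over all 43191 shared sites. Fold enrichment was higher in repeat 2 at 5 of the 32 sites (15.6%), beside 21.7% of all shared sites. These 5 were the sites of Pcdhga8 and Pcdhgb7, the site 5.73 kb into Pcdhga12, the site 16.3 kb into Pcdhgc5 and the weakest alpha site. At the site in Pcdhgc5 the folds were almost equal (10.15-fold and 10.2-fold).

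**Figure D5:**
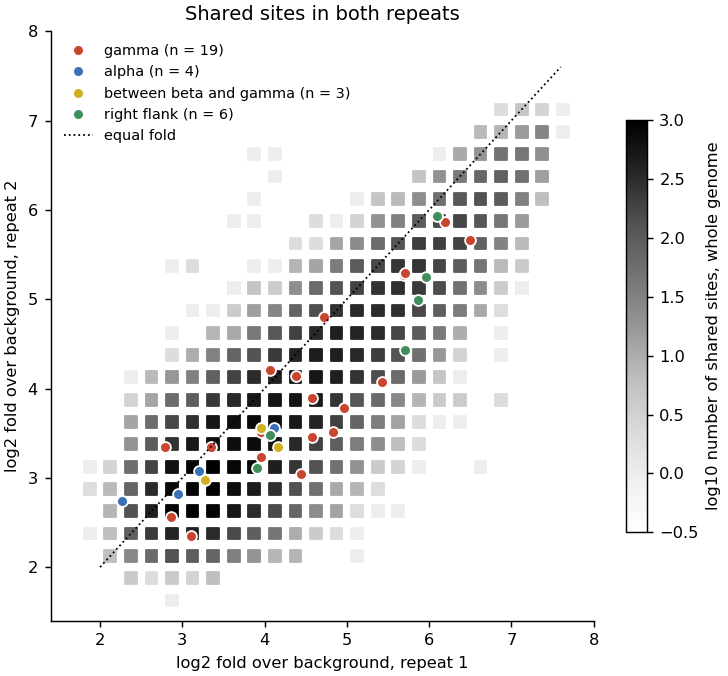
Log2 fold enrichment in repeat 1 (horizontal axis) against repeat 2 (vertical axis) for the 32 shared sites of the window (coloured points) over all 43191 shared sites in bins (grey squares, darker for more sites). Most coloured points lie below the dotted line of equal fold, as the grey squares do, and 3 of the 4 alpha points lie at the low end.

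Most peaks found in 1 repeat were below the median fold of their list. The 9 of repeat 1 alone had 20 to 54 tags and 5.56-fold to 12.1-fold enrichment. With 23 to 29 tags, the 5 of repeat 2 alone ran from 5.49-fold to 7.46-fold. The highest of repeat 1, at Pcdhb14, was at the median of its list. Of the first, 4 lay in the alpha cluster and 2 in the gamma cluster. Of the others, 4 lay in the gamma cluster and 1 in Taf7. In the alpha cluster repeat 1 thus had 8 peaks and repeat 2 had 4.

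For genes of related lists, values are those of the strongest shared site within 10 kb of an end. Non-clustered protocadherins, which lie apart in the genome and have their own full-length genes, had a shared site within 10 kb of an end in 4 of 12 cases, beside the 59.8% of all protein-coding genes. Pcdh8 had 48.0-fold and 26.3-fold enrichment 16 bp from an end (0.016 kb). The others were Pcdh1 (23.8-fold and 14.1-fold), Pcdh12 (7.15-fold and 9.29-fold) and Pcdh9 (8.21-fold and 6.28-fold). Pcdh7, Pcdh10, Pcdh11x, Pcdh15, Pcdh17, Pcdh18, Pcdh19 and Pcdh20 had none that close, although 1 lay inside Pcdh15. Of 8 classical cadherin genes, Cdh1, which encodes E-cadherin (22.0-fold and 31.4-fold), and Cdh5, which encodes VE-cadherin (23.8-fold and 11.4-fold), had a shared site, and Cdh2, Cdh3, Cdh4, Cdh6, Cdh8 and Cdh11 had none that close. Farther from the ends, 6 shared sites lay inside Cdh4, 4 inside Cdh2, 2 inside Cdh3 and 1 inside Cdh6.

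Genes listed as regulators of the clusters had a shared site within 10 kb of an end in 12 of 15 cases (80%), beside the 59.8% of all protein-coding genes. Ctcf, which encodes the insulator protein that binds protocadherin promoters and enhancers, had 62.2-fold and 56.9-fold enrichment. Rest, a repressor of neuronal genes, had 50.4-fold and 42.3-fold. Enzymes and cofactors of chromatin silencing followed, with Hells at 39.6-fold and 41.6-fold, Setdb1 at 40.3-fold and 40.0-fold and Wiz at 52.2-fold and 25.5-fold. Silencing genes of the list with lower fold were Dnmt3b (17.4-fold and 15.3-fold) and Smchd1 (14.0-fold and 9.42-fold), also named after their values were seen. Among genes of cohesin and its regulators, Wapl (30.9-fold and 27.1-fold), Rad21 (27.5-fold and 29.8-fold), Stag1 (27.2-fold and 18.4-fold) and Smc3 (10.6-fold and 6.28-fold) had a shared site, and are named here after their values were seen. For the regulators given with values, that site lay 3.51 kb (Wiz) to 9.51 kb (Dnmt3b) from the nearer end. Smc1a, Stag2 and Nipbl had none within 10 kb of an end, although 3 shared sites lay inside Nipbl. Genes listed as signalling partners of protocadherins had one in 7 of 12 cases (58.3%), near the share of all protein-coding genes. Celsr3, an atypical cadherin gene, had 92.8-fold and 93.0-fold, followed by Cyfip1 (56.2-fold and 39.6-fold), Fyn (29.3-fold and 24.3-fold), Ptk2 (55.1-fold and 14.1-fold), Rac1 (29.0-fold and 13.3-fold) and Ret (24.3-fold and 8.63-fold). Ptk2b, Wasf1, Cyfip2, Nckap1 and Abi1 had none that close, although 5 shared sites lay inside Abi1, 3 inside Ptk2b and 1 each inside Wasf1 and Cyfip2.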

How the data were processed

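Per the file headers, the authors called peaks with MACS 1.4.1 in each repeat separately, ChIP against the input of that repeat, at a p-value of 1e-05 with 35 bp tags and at most 2 duplicate tags per position. The deposited tag count is the number of ChIP tags in a peak. The deposited fold enrichment is a ratio to the local background. The deposited score is 10 times the -log10 p-value, and the deposited FDR is in percent. The submitters' processing notes name CASAVA 1.8.2 and mm9, and no aligner is named (not given in the sources used here). Positions were read as GRCm38: on chromosome 18, 10.6% of shared summits lay within 1 kb of a gene end of that build, and at most 4.65% at 40 other shifts of up to 400 kb.

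From these lists, peaks of the repeats were matched one-to-one by largest overlap (at least 1 bp), each pair counting as 1 site at the repeat 1 summit. Summits were start + summit - 1. Genes came from a RefSeq table of GRCm38.p6 without exons. All members were taken to run toward higher coordinates, and the start is the lower end. Strands of other genes came from a RefSeq promoter table (17492 genes, none on chromosome 18). The transcribed pseudogene Pcdhgb8 and 3 readthrough genes with other symbols were not members. Calculations used Python 3.11.15, pandas 2.3.3 and scipy 1.17.1, and matching was tested on simulated data. All 57 members, every shared site and up to 6 genes per related list were described by rule. Among the regulators, values of Wapl, Rad21, Stag1, Smc3, Dnmt3b and Smchd1 were given outside that rule, after they were seen. The values of 1 gene that the rule picks from the list of regulators are not reported here. Members and lists were chosen with earlier results of these data known.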

Additional observations from a re-analysis of the deposited data

How the results depend on the processing

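Of 69 values under alternative settings, 63 stayed within 1.5 times the reported count or within the spread between repeats. The 22 members with a shared site within 10 kb of their start became 12 within 1 kb and 35 with either end of the gene. The 4 shared alpha sites became 1 with a fold of at least 10 in both repeats and 2 with a score of at least 100 in both. With 1 repeat in place of both, alpha sites numbered 4 to 8 and beta sites 0 to 1, so the alpha count rests on which repeats are used (8 in repeat 1, 4 in repeat 2). The 19 gamma sites ranged from 14 (fold of at least 10) to 23 (repeat 2 alone). Joining overlapping peaks into regions, an alternative chosen after seeing the data, gave 31 sites in the window. No paired analysis was possible because each repeat's input was used up in calling that repeat's peaks and has no values of its own. At this depth the lowest tag counts of shared sites in the window were 22 in repeat 1 and 26 in repeat 2, and counting error is large there. Fold depends on the local background of each repeat and not on the ChIP tags alone.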
